A study of Mus musculus with 24 samples.

Results

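The 10 genes described here are transcripts of astrocytes, the star-shaped glial cells of the brain. They were taken by symbol from a list, with 4 genes of the reactive state (Gfap, Vim, Serpina3n and Cd44) and 6 genes of resting, homeostatic function (Aqp4, S100b, Slc1a2, Slc1a3, Aldh1l1 and Gja1). All 10 were among the 24062 genes of the count table, and all 10 were among the 16313 genes that passed the filter on low counts and were tested. RNA came from micro-dissected hippocampus of C57BL/6 mice in 4 groups. The KO stress group (5 libraries) lacked the interleukin-1 receptor IL-1R1 in neurons and went through social defeat by paired fighting. The KO control group (6 libraries) had the same genotype without defeat, the WT stress group (6 libraries) was wild type with defeat, and the WT control group (7 libraries) was wild type without it. The Cre line or promoter behind the neuronal knockout, the number and timing of the defeats, and the sex and age of the mice are not stated in the labels. Nor do the labels tie libraries to single mice, so the p-values describe the spread between libraries, part of which may be technical.

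Astrocytes take up glutamate released at synapses through transporters in their membrane, buffer water and potassium, and are joined to each other by gap junctions. After injury or inflammation they enter a reactive state, in which intermediate filament genes such as Gfap and Vim are raised and secreted and surface proteins such as Serpina3n and Cd44 appear. Interleukin-1 is one of the cytokines known to drive astrocyte reactivity, and defeat stress in mice is known to raise interleukin-1 signalling in the brain.

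Of the 10 genes, 6 differed between 2 sets of libraries that are introduced below, as did 20.8% of all genes tested, and the start site regions of 3 of these 6 are shown because they carry matches to motifs searched in all the regions. Each run covers the 250 bases before and the first 30 bases after the start site in RefSeq (GRCm38.p6), 5′ to 3′ on the strand of the gene. Capitals mark matches to the STAT letters TTCNNNGAA or to the TATA letters TATAAA, searched on both strands.
Gfap, chr11:102897171-102897450, minus strand: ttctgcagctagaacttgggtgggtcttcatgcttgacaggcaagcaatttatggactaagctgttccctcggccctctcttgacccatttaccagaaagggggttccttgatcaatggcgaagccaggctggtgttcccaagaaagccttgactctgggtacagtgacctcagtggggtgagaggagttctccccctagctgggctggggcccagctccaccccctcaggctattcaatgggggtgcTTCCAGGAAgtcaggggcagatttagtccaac
Vim, chr2:13574061-13574340, plus strand: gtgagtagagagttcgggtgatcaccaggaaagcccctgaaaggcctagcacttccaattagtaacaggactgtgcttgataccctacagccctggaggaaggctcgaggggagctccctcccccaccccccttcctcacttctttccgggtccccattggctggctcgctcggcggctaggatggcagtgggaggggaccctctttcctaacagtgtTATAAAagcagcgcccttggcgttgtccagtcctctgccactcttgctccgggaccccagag
Slc1a3, chr15:8710778-8711057, minus strand: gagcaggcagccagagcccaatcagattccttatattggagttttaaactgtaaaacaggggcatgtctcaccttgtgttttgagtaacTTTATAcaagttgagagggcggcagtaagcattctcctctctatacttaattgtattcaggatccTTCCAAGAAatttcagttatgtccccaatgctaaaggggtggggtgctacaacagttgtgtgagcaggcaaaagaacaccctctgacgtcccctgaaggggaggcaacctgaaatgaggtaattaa
In Gfap the STAT letters (TTCCAGGAA) lay from base -2 to base 7 around the start site, and in Slc1a3 (TTCCAAGAA) from base -96 to base -88. These letters were found in 7.83% of the 32851 RefSeq regions of the same length (280 bases). The TATA letters lay from base -32 to base -27 in Vim and, on the opposite strand, from base -161 to base -156 in Slc1a3, and 13.1% of all regions held them. The AP-1 letters TGANTCA, present in 7.46% of all regions, were found in Gja1 (from base -19 to base -13) and in none of the other 8 genes searched. None of the 3 motifs overlapped another, and a match is a description of letters, not a binding site.

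Libraries held 25711872 to 35148198 counts. They fell into 2 sets by their content of Rn45s, the precursor of ribosomal RNA. Set 2 (13 libraries, replicate 3 and above) had 4107 to 8786 CPM of Rn45s (counts scaled to the depth of the library), and set 1 (11 libraries, replicates 1 to 4) had 24238 to 50453 CPM. Every group held both sets: 3 of 5 KO stress, 2 of 6 KO control, 4 of 6 WT stress and 4 of 7 WT control libraries were in set 2. The labels give no cause of the sets, which are used here as a property of the libraries. Among set 2, 3 stress libraries (KO stress replicates 3 and 5 and WT stress replicate 5) stood apart by transcripts of thalamus and habenula, regions that adjoin the hippocampus. Markers of these regions (8 genes) summed to 441 to 590.4 CPM in the 3 and 76.0 to 167 CPM in other set 2 libraries. Libraries of set 1 had 126 to 435 CPM of them, so leaving out the 3 does not leave libraries free of such transcripts. Il1r1 itself averaged 5.54 ± 1.77 CPM in KO stress, 3.44 ± 1.21 in KO control, 5.56 ± 1.45 in WT stress and 3.35 ± 1.31 CPM in WT control libraries (SD). It did not check the genotype labels, since the whole tissue holds other cells that make it and the part of the gene that was deleted is not stated.

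Levels between genes were compared per length, as RPKM, in which CPM is divided by exon length (mean ± SD over the 24 libraries). Slc1a2, the main glutamate transporter of astrocytes (GLT-1), stood highest at 125 ± 15.1 RPKM. S100b, a calcium-binding protein, had 96.8 ± 21.1 RPKM and Gfap, the filament protein that defines astrocytes in tissue sections, 93.6 ± 20.3 RPKM. Slc1a3 (the glutamate transporter GLAST) followed at 38.9 ± 5.44 RPKM. Serpina3n, a secreted protease inhibitor, had 20.5 ± 7.25 RPKM, Gja1 (the gap junction protein connexin 43) 17.3 ± 2.04 and Aldh1l1 (a folate enzyme used as a general astrocyte marker) 15.2 ± 1.85 RPKM. Vim, the filament protein vimentin, had 10.8 ± 2.26 RPKM and Aqp4, the water channel of astrocyte end-feet, 10.7 ± 2.40 RPKM. Cd44, a receptor for hyaluronan, was last at 0.683 ± 0.206 RPKM. Within 1 SD, the neighbours Slc1a2 and S100b, S100b and Gfap, Serpina3n and Gja1, Gja1 and Aldh1l1, and Vim and Aqp4 overlapped in this order.

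The genes also differed in how far they varied between libraries. The coefficient of variation in CPM was 36.1% for Serpina3n, 28.5% for Cd44, 21.6% for Gfap and 19.0% for Vim among the reactive genes. Among the homeostatic genes it was 20.8% for S100b, 19.5% for Aqp4, 14.5% for Slc1a3, 12.8% for Slc1a2, 12.6% for Aldh1l1 and 9.89% for Gja1. Serpina3n spanned a 3.63-fold range over the libraries, while Gja1 spanned 1.51-fold. Even the scarcest value, 2.33 CPM of Cd44, lay above the level of 3 reads, which was at most 0.117 CPM.

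**Figure D1:**
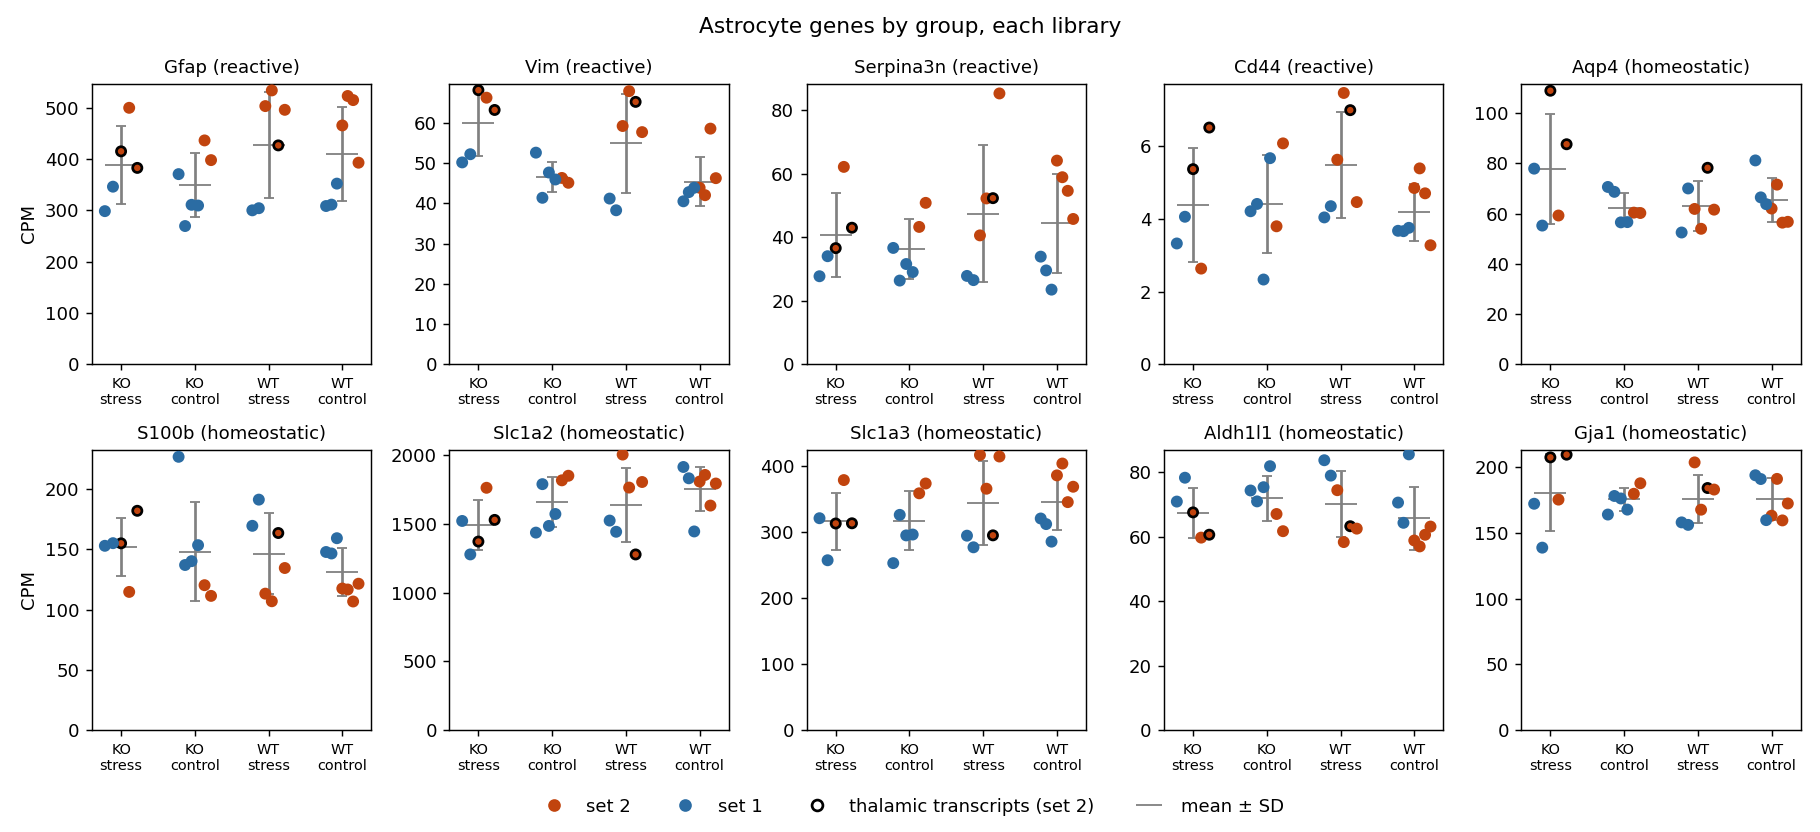
CPM of each of the 10 genes (vertical axis, from 0) in every library of the 4 groups (horizontal axis), with set 2 and set 1 in different colours, the 3 libraries with thalamic transcripts ringed, and mean ± SD as grey bars. The groups overlap in every panel, and the Gfap points of set 2 lie above those of set 1.

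Whether social defeat moved these genes was asked within each genotype. None of the 10 genes passed the threshold of an adjusted p of 0.05 in KO stress against KO control libraries (edgeR's quasi-likelihood test with Benjamini-Hochberg adjustment), where 0.00613% of all genes tested did. None passed in WT stress against WT control libraries either, against 0.135% of all genes. At an unadjusted p of 0.05, 2 of the 10 genes (Vim and Aqp4) passed in KO mice, where 3.97% of all genes did, and 1 (Vim) in WT mice, where 4.41% did. DESeq2 and limma voom also called 0 of the 10 in both comparisons. In such bulk tissue, fewer cells of a type and less RNA per cell cannot be told apart.

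Vim had the smallest p of the 10 genes in both genotypes. It had 50.2, 52.2, 68.1, 66.3 and 63.2 CPM in the KO stress libraries, against 41.4, 46.1 and 52.6 CPM (lowest, median and highest) in KO control libraries. In WT stress libraries it had 38.3, 58.5 and 67.9 CPM (lowest, median and highest), against 40.5, 43.9 and 58.6 CPM in WT control libraries. The groups overlapped in both genotypes, with 3 of 5 KO stress libraries above every KO control library and 3 of 6 WT stress libraries above every WT control library. The log2 fold change of Vim was 0.37 ± 0.13 (SE) in KO mice, with an adjusted p of 0.988 by edgeR, and 0.27 ± 0.12 in WT mice, with an adjusted p of 0.9998. Averaged over the genotypes it was 0.32 ± 0.09, a 1.25-fold higher level under stress (unadjusted p 0.00112, adjusted p 0.212). No member passed for the average, where 0.215% of all genes did.

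By set, the means of Vim differed more in set 2 than in set 1. In set 2 Vim averaged 65.9 ± 2.48 CPM in KO stress (n = 3) and 45.7 ± 0.853 CPM in KO control libraries (n = 2), and 62.5 ± 4.84 CPM in WT stress and 47.7 ± 7.46 CPM in WT control libraries (SD, n = 4 each). In set 1 it averaged 51.2 ± 1.44 CPM in KO stress (n = 2) and 46.9 ± 4.64 CPM in KO control libraries (n = 4). The WT libraries of set 1 averaged 39.7 ± 2.06 CPM under stress (n = 2) and 42.4 ± 1.72 CPM without it (n = 3). In an alternative fit of set 2 libraries alone, the log2 fold change of Vim averaged over genotypes was 0.46 (edgeR, adjusted p 0.0266). The 3 thalamic libraries, all of them stress libraries, were part of that fit. Set 2 alone was not fitted without them, so stress and adjoining tissue are not parted in this value. Other genes passed in that fit too, and their number is given with the alternatives below. With set 1 alone the value for Vim was 0.02 (adjusted p 0.957). With set as a term in the fit it was 0.25 ± 0.07 (adjusted p 0.243), and without the 3 thalamic libraries 0.25. Whether the stress effect itself differed between the sets was not tested.

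Vimentin is also made by endothelial and other vascular cells. The summed level of 8 endothelial markers (none at 0 throughout a group) was 244 to 347 CPM in KO stress and 235 to 277 CPM in KO control libraries. It was 287 to 327 CPM in WT stress and 242 to 265 CPM in WT control libraries, with no overlap. The sum of 8 pericyte and smooth muscle markers, likewise none at 0 throughout a group, was 178 to 253 CPM in KO stress, 167 to 214 in KO control, 171 to 247 in WT stress and 162 to 215 CPM in WT control libraries. The sum of 6 ependymal markers was 40.0 to 77.1 CPM in KO stress and 22.5 to 49.4 CPM in KO control libraries. In WT libraries it was 19.4 to 56.3 CPM under stress and 24.3 to 56.2 CPM without it. Markers of meningeal fibroblasts (7 genes) summed to 151 to 255 CPM in KO stress and 148 to 166 CPM in KO control libraries. In WT libraries they summed to 107 to 257 CPM under stress and 120 to 265 CPM without it. The part of all these cells in the Vim values was not tested.

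Gfap gave smaller log2 fold changes than Vim. It had 299, 346, 415, 500.1 and 383 CPM in the KO stress libraries, against 269.5, 341 and 436 CPM (lowest, median and highest) in KO control libraries. In WT stress libraries it had 300.1, 461 and 534 CPM, against 309, 393 and 523 CPM in WT control libraries. These groups overlapped over most of their range, and group means were 389 ± 75.9 in KO stress, 349 ± 63.0 in KO control, 427 ± 103 in WT stress and 409.9 ± 91.8 CPM in WT control libraries (SD). The log2 fold change was 0.15 ± 0.18 in KO mice and 0.06 ± 0.16 in WT mice. With set as a term these became 0.01 ± 0.09 and 0.0030 ± 0.09, with 95% intervals of -0.18 to 0.21 in KO mice and -0.17 to 0.18 in WT mice.

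Serpina3n had 27.7, 34.0, 36.5, 62.1 and 43.0 CPM in the KO stress libraries, against 26.3, 34.1 and 50.8 CPM (lowest, median and highest) in KO control libraries. It had 26.5, 46.4 and 85.2 CPM in WT stress libraries, against 23.5, 45.7 and 64.1 CPM in WT control libraries. The medians were close and the groups overlapped in both genotypes. The log2 fold change was 0.17 ± 0.29 in KO mice and 0.10 ± 0.27 in WT mice, or -0.05 ± 0.17 in KO mice and 0.02 ± 0.15 in WT mice with set as a term. Serpina3n belongs to a cluster of near-identical Serpina3 genes, so its counts are uncertain where reads could be split between copies.

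Cd44, the fourth reactive gene, had 3.32, 4.06, 5.37, 2.63 and 6.51 CPM in the KO stress libraries, against 2.33, 4.31 and 6.08 CPM in KO control libraries. In WT stress libraries it had 4.04, 5.05 and 7.47 CPM, against 3.27, 3.75 and 5.39 CPM in WT control libraries, and 3 of 6 WT stress libraries lay above every WT control library. Cd44 had a log2 fold change of -0.01 ± 0.24 in KO mice and 0.39 ± 0.22 in WT mice, where the adjusted p was 0.9998 by edgeR. Without the 3 thalamic libraries these values were -0.40 and 0.31.

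Among the homeostatic genes, Aqp4 had an unadjusted p under 0.05 in KO mice. It had 77.9, 55.2, 109, 59.2 and 87.6 CPM in the KO stress libraries, against 56.5, 60.3 and 70.6 CPM (lowest, median and highest) in KO control libraries. It had 52.5, 61.7 and 78.2 CPM in WT stress libraries, against 56.4, 63.8 and 81.2 CPM in WT control libraries. Of the 5 KO stress libraries, 3 lay above every KO control library and 1 below. The log2 fold change was 0.32 ± 0.14 in KO mice (unadjusted p 0.0289, adjusted p 0.988) and -0.05 ± 0.13 in WT mice (adjusted p 0.9998). Both KO stress libraries with thalamic transcripts had the highest values, 109 and 87.6 CPM, and without the 3 thalamic libraries the fold change in KO mice was 0.04.

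None of the other 5 homeostatic genes had an unadjusted p under 0.05 in either genotype. Slc1a2 gave a log2 fold change of -0.15 ± 0.11 in KO mice and -0.10 ± 0.10 in WT mice, from 1491 ± 184 CPM in KO stress, 1657 ± 182 in KO control, 1635 ± 268 in WT stress and 1753 ± 161 CPM in WT control libraries (SD). Slc1a3 gave -0.0020 ± 0.12 in KO mice and -0.0087 ± 0.11 in WT mice, and Gja1 gave 0.04 ± 0.09 in KO mice and -0.0030 ± 0.08 in WT mice. Aldh1l1 gave -0.09 ± 0.11 in KO mice and 0.10 ± 0.10 in WT mice. S100b gave 0.04 ± 0.17 in KO mice and 0.16 ± 0.15 in WT mice. For Gja1, the gene with the narrowest intervals, the 95% interval of the log2 fold change was -0.15 to 0.23 in KO mice and -0.18 to 0.17 in WT mice.

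Set side by side, the reactive genes had the higher medians in both genotypes, except in KO mice once set was a term. The median log2 fold change under stress was 0.16 for the 4 reactive and 0.02 for the 6 homeostatic genes in KO mice, where the median of all genes was 0.0052. In WT mice the medians were 0.19 and -0.0058, with -0.0013 over all genes. With set as a term the medians were -0.02 for reactive and -0.0085 for homeostatic genes in KO mice, and 0.12 and -0.03 in WT mice. These medians are descriptions of the chosen genes. The 2 stress comparisons share no libraries, but they come from the same fit and are not balanced for set. In KO mice set 2 held 3 of 5 stress and 2 of 6 control libraries. In WT mice it held 4 of 6 stress and 4 of 7 control libraries.

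**Figure D2:**
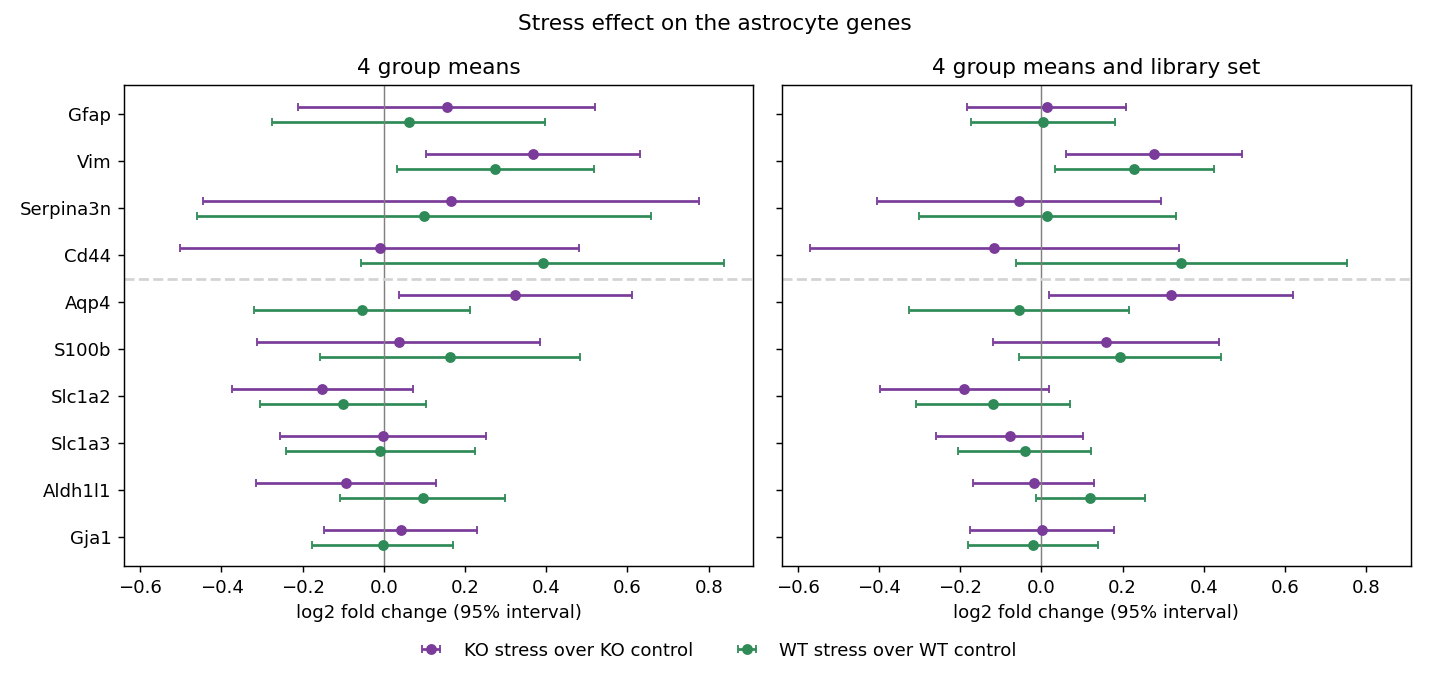
Log2 fold change under stress (horizontal axis) with its 95% interval for each gene (vertical axis, reactive genes above the dashed line), KO stress over KO control and WT stress over WT control, from the fit of 4 group means (left) and from the fit with library set added (right). The Vim intervals lie above 0 in both genotypes and both fits, and the Gfap points move to 0.01 and 0.0030 once set is in the fit.

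Whether the stress effect depended on the genotype was tested as an interaction, in which the stress effect of WT mice is subtracted from that of KO mice. None of the 10 genes passed, and none of the 16313 genes did (0% called by edgeR, 384 genes or 2.35% at an unadjusted p of 0.05, and 0 of the 10 genes at that level). The widest differences were those of Cd44 (-0.40 ± 0.32) and Aqp4 (0.38 ± 0.19, unadjusted p 0.0580). For Vim the difference was 0.09 ± 0.17, with a 95% interval of -0.27 to 0.45, and for Gfap 0.09 ± 0.24, with an interval of -0.40 to 0.59. Without the 3 thalamic libraries the Aqp4 value was 0.17.

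The genotypes were compared under stress and without it. Under stress 0 of the 10 genes passed between KO stress and WT stress libraries, as did 0% of all genes by edgeR, with 768 genes (4.71%) at an unadjusted p of 0.05. Aqp4 alone of the 10 was at that level, with a log2 fold change of 0.30 ± 0.14 (unadjusted p 0.0392, adjusted p 0.798), and without the 3 thalamic libraries its value was 0.10. Gfap gave -0.14 ± 0.18, Serpina3n -0.22 ± 0.30, Cd44 -0.32 ± 0.24 and Vim 0.13 ± 0.13. The homeostatic genes other than Aqp4 ranged from -0.13 (Slc1a2) to 0.05 (S100b).

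Between KO control and WT control libraries 0 of the 10 genes passed, with 0% of all genes called and 493 genes (3.02%) at an unadjusted p of 0.05, among them none of the 10. Gfap had a log2 fold change of -0.23 ± 0.16 and Serpina3n of -0.29 ± 0.27, the lowest of the 10. With set as a term these were -0.09 ± 0.09 and -0.05 ± 0.16, and 2 of 6 KO control and 4 of 7 WT control libraries were in set 2. The homeostatic genes ranged from -0.13 (Slc1a3) to 0.18 (S100b).

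More of these genes passed between the library sets than between the stress or genotype groups. Between set 2 and set 1, with the 4 groups in the fit, 6 of the 10 genes passed the threshold by edgeR, while 20.8% of all genes did. Of the reactive genes 3 of 4 were higher in set 2 (Gfap, Vim and Serpina3n). Of the homeostatic genes 1 of 6 was higher (Slc1a3) and 2 were lower (S100b and Aldh1l1). The median log2 fold change was 0.44 for the reactive and 0.07 for the homeostatic genes, with 7.75e-05 over all genes.

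Gfap (mm10 chr11:102887336-102900912, minus strand), whose start site region is shown above, had 383, 466 and 534 CPM (lowest, median and highest) in set 2, against 269.5, 309 and 371 CPM in set 1. The sets did not overlap, as was so for 0.699% of all genes tested, and Gfap was higher in set 2 by 0.52 ± 0.07 on the log2 scale (adjusted p 8.24e-06). Serpina3n (chr12:104406729-104414329, plus strand) had 36.5, 52.2 and 85.2 CPM in set 2, against 23.5, 29.0 and 36.6 CPM in set 1. Its sets met at 1 library each, and the log2 fold change was 0.82 ± 0.12, a 1.77-fold higher level in set 2 (adjusted p 3.94e-05).

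Vim (chr2:13573927-13582826, plus strand) had 42.0, 58.6 and 68.1 CPM in set 2, against 38.3, 43.9 and 52.6 CPM in set 1, and the sets overlapped. Its log2 fold change was 0.28 ± 0.07 with an adjusted p of 0.00927. The means of Vim differed more between the sets under stress than in controls. In set 2 and set 1 they were 65.9 and 51.2 CPM in KO stress and 62.5 and 39.7 CPM in WT stress libraries. In controls they were 45.7 and 46.9 CPM in KO and 47.7 and 42.4 CPM in WT libraries. The fit gives 1 set difference for all groups. Slc1a3 (chr15:8634124-8710764, minus strand) had 295, 369 and 417 CPM in set 2, against 253, 295 and 326 CPM in set 1. It was higher in set 2 by a log2 fold change of 0.31 ± 0.06 (adjusted p 0.000900).

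S100b (chr10:76253853-76261159, plus strand) went the other way, with 107, 117 and 182 CPM in set 2, against 137, 153 and 227 CPM in set 1. It was lower in set 2, with a log2 fold change of -0.36 ± 0.09 (adjusted p 0.00708). Aldh1l1 (chr6:90486427-90600203, plus strand) had 56.9, 61.7 and 74.4 CPM in set 2, against 64.3, 75.3 and 85.5 CPM in set 1. It was lower in set 2 by a log2 fold change of -0.28 ± 0.05 (adjusted p 0.000273). The other 4 genes did not pass, with 0.37 ± 0.15 for Cd44 (adjusted p 0.0898), 0.15 ± 0.07 for Slc1a2 (adjusted p 0.141), 0.13 ± 0.06 for Gja1 (adjusted p 0.133) and 0.01 ± 0.10 for Aqp4 (adjusted p 0.938).

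Markers of other cells were counted between the sets by the same test, at the same 20.8% of all genes. Higher in set 2 were 5 of 7 microglial, 3 of 6 neuronal and 4 of 6 markers of hippocampal radial glia-like cells and progenitors, which share Gfap with astrocytes. Neutrophil and monocyte markers had 5 of 6 tested genes higher, with a median log2 fold change of 1.99. The fit assumes the same set difference in all groups, but the summed level of these markers (8 genes) parted mainly under stress. Stress libraries had 13.9 to 61.4 CPM (set 2) and 10.1 to 14.8 CPM (set 1). Control libraries were alike, at 7.47 to 12.1 CPM (set 2) and 7.43 to 11.4 CPM (set 1). Pericyte and smooth muscle markers had 2 of 8 higher. Endothelial markers had 3 of 8 higher and 1 lower, and thalamic markers 1 of 8 lower and none higher. None of 7 oligodendrocyte markers passed, though all 7 log2 fold changes were below 0 (median -0.29) and 4 had an unadjusted p under 0.05, as had 33.5% of all genes. None of the 7 meningeal, 6 choroid plexus and 6 ependymal markers passed either. The microglial sum had a median of 445 CPM in set 2 (386 to 545), against 364 CPM in set 1 (339 to 392). The neuronal sum had a median of 13144 CPM in set 2 (7014 to 14318), against 9606 CPM in set 1 (9142 to 10779). These neuronal values were higher in most of set 2, but the 3 thalamic libraries lay below all of set 1. The thalamic sum had a median of 91.2 CPM in set 2 (76.0 to 590.4), against 329 CPM in set 1 (126 to 435). The oligodendrocyte sum had a median of 6140.3 CPM in set 2 (3733 to 11407), against 7720.2 CPM in set 1 (5736 to 9129). The sum of the radial glia-like and progenitor markers had a median of 231 CPM in set 2 (179 to 242), against 162 CPM in set 1 (138 to 171), with no overlap. The neutrophil and monocyte sum had a median of 13.9 CPM in set 2 (7.47 to 61.4), against 10.1 CPM in set 1 (7.43 to 14.8), and the endothelial sum one of 282 CPM in set 2 (246 to 347), against 265 CPM in set 1 (235 to 309). No marker of these lists was at 0 throughout a set, and their part in the differences between sets was not tested.

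**Figure D3:**
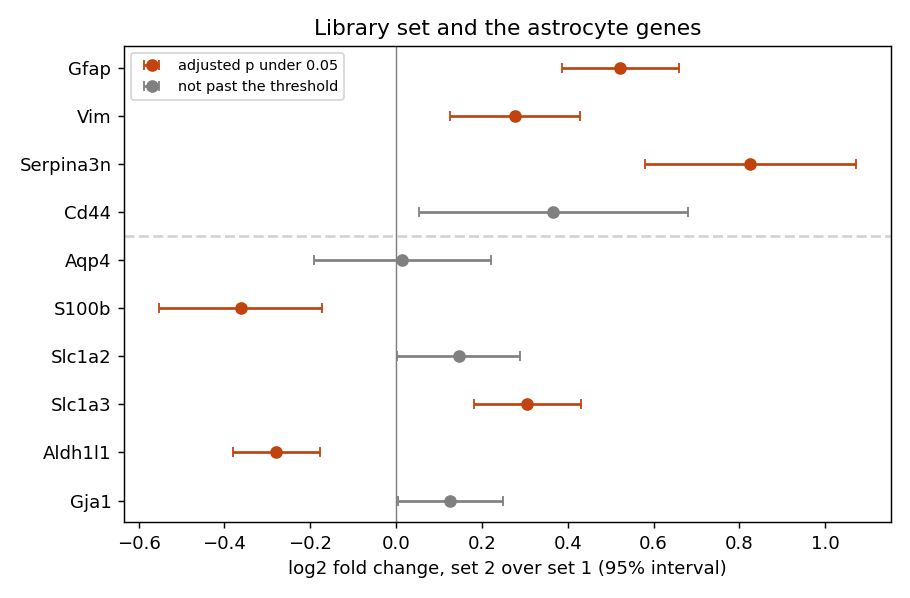
Log2 fold change of set 2 over set 1 (horizontal axis) with its 95% interval for each gene (vertical axis, reactive genes above the dashed line), from the edgeR fit with the 4 groups. Gfap, Vim, Serpina3n and Slc1a3 are higher in set 2, S100b and Aldh1l1 are lower, and the 4 grey genes did not pass the threshold.

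The 3 set 2 libraries with thalamic transcripts were set beside the other 10 libraries of set 2. Their 8 thalamic markers summed to 441 to 590.4 CPM, against 76.0 to 167 CPM in the other 10. Aqp4 had 78.2, 87.6 and 109 CPM in the 3 libraries, against 53.9, 60.3 and 71.5 CPM (lowest, median and highest) in the other 10. S100b had 155, 163 and 182 CPM in the 3, against 107, 116 and 134 CPM in the other 10. Slc1a2 was low in the 3, with 1277, 1370.4 and 1528 CPM, against 1632, 1805 and 2002 CPM in the other 10. Slc1a3 had 295.1, 313.1 and 313.4 CPM in the 3, against 345, 376 and 417 CPM in the other 10. These 4 of the 10 genes did not overlap between the 3 and the other 10 libraries, and neither did 24% of all genes tested. The other 2 homeostatic genes overlapped, with 184 to 209.7 CPM of Gja1 in the 3 and 160 to 204 CPM in the other 10, and 60.6 to 67.5 CPM of Aldh1l1 in the 3 and 56.9 to 74.4 CPM in the other 10.

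The reactive genes overlapped in this comparison. Gfap had 383 to 427 CPM in the 3 libraries and 393 to 534 CPM in the other 10, and Serpina3n had 36.5 to 52.3 CPM in the 3 and 40.6 to 85.2 CPM in the other 10. Vim had 63.2 to 68.1 CPM in the 3 and 42.0 to 67.9 CPM in the other 10. Oligodendrocyte markers (7 genes, none at 0 throughout the 3 or the other 10) summed to 7669.98 to 11407 CPM in the 3 and 3733 to 7117 CPM in the other 10, and neuronal markers to 7014 to 8147 CPM in the 3 and 12505 to 14318 CPM in the other 10. The 3 libraries are all stress libraries, but set 2 also holds stress libraries with thalamic sums of 81.5 to 97.7 CPM. These (KO stress replicate 4 and WT stress replicates 3, 4 and 6) had 59.2, 61.9, 53.9 and 61.6 CPM of Aqp4. Their Slc1a2 was 1761, 2002, 1762 and 1803 CPM. Whether stress or a share of adjoining tissue underlies the values of the 3 libraries was not tested.

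**Figure D4:**
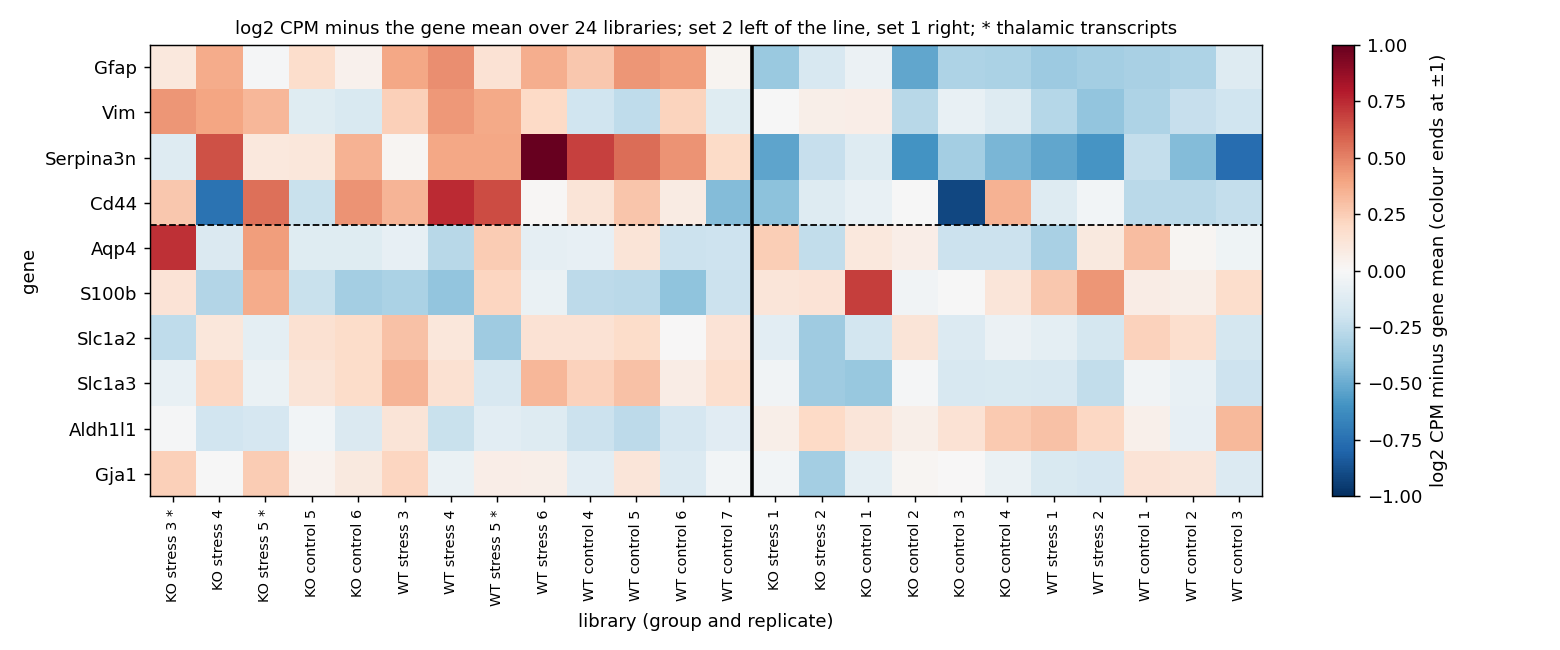
Log2 CPM of each gene (rows, reactive genes above the dashed line) minus its mean over the 24 libraries, by library (columns, set 2 left of the black line and set 1 right, thalamic libraries marked by an asterisk); the colour scale ends at 1 and -1. The rows of Gfap and Serpina3n are mostly red in set 2 and blue in set 1, and the row of S100b is mostly blue in set 2 except in the 3 marked libraries.

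How far the other genes went with Gfap was described within each set, as the pooled libraries form 2 clusters. Of 18 correlations of log2 CPM (9 genes in each set), none passed the threshold after Benjamini-Hochberg adjustment, and 3 had an unadjusted permutation p under 0.05. In set 1 (11 libraries) Slc1a3 had a Pearson r of -0.804 with Gfap (permutation p 0.00307, adjusted p 0.0553) and a Spearman rho of -0.691 (permutation p 0.0215, adjusted p 0.194), and r was -0.620 without the 2 libraries farthest from the median of Gfap. In set 2 (13 libraries) the same pair had an r of 0.559 (permutation p 0.0490, adjusted p 0.203) and a rho of 0.429 (permutation p 0.146, adjusted p 0.329), and r was 0.537 without the 2 farthest libraries. The sign thus differed between the sets, and that difference was not tested. S100b had an r of -0.605 in set 2 (permutation p 0.0292, adjusted p 0.203) and a rho of -0.670 (permutation p 0.0150, adjusted p 0.194), and r was -0.533 without the 2 farthest libraries. In set 1 its r was 0.579 (permutation p 0.0676, adjusted p 0.203) and its rho 0.364 (permutation p 0.271, adjusted p 0.443), but r was -0.107 without the 2 farthest libraries, so that relation rests on them. Set 2 also holds the 3 thalamic libraries, with 155 to 182 CPM of S100b, against 107 to 134 CPM in its other 10. Slc1a3 had 295 to 313 CPM in the 3 and 345 to 417 CPM in the other 10. Gfap had 383 to 427 CPM in the 3 and 393 to 534 CPM in the other 10. The correlations in set 2 were not computed again without these 3 libraries, so their part in them was not tested.

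Among 32 further genes known to rise in reactive astrocytes, 0 passed under stress in KO mice and 1 in WT mice by edgeR, where 0.00613% of all genes passed in KO and 0.135% in WT mice. At an unadjusted p of 0.05 there were 4 of the 32 in KO mice, against 3.97% of all genes, and 9 of the 32 in WT mice, against 4.41%. The 1 gene was Lcn2, a secreted iron carrier protein that endothelial cells and neutrophils also make. Lcn2 had 1.21 to 13.7 CPM in KO stress and 0 to 0.945 CPM in KO control libraries, and 4.95 to 19.9 CPM in WT stress and 0 to 0.754 CPM in WT control libraries, with no overlap in either genotype (0.3% of all genes did not overlap in KO and 0.282% in WT mice). Its log2 fold change was 3.60 ± 0.76 in KO mice (adjusted p 0.331) and 5.15 ± 0.75 in WT mice (adjusted p 0.00180). The interaction for Lcn2 was -1.55 ± 1.06 (unadjusted p 0.156). The median log2 fold change of the 32 genes was 0.18 in KO mice and 0.20 in WT mice, with 24 genes above 0 in KO and 25 in WT mice. Over all genes the median was 0.0052 in KO and -0.0013 in WT mice. A majority above 0 was not particular to the reactive genes, as the homeostatic counts below show. Neutrophil and monocyte markers (8 genes, none at 0 throughout a group) summed to 10.1 to 36.4 CPM in KO stress, 7.43 to 11.5 in KO control, 10.5 to 61.4 in WT stress and 7.47 to 12.1 CPM in WT control libraries, and their part in the Lcn2 values was not tested.

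Among 49 further homeostatic genes, 48 were tested and 0 passed under stress in either genotype by edgeR, at the same shares of all genes (0.00613% in KO and 0.135% in WT mice). At an unadjusted p of 0.05 there were 0 in KO mice, against 3.97% of all genes, and 4 in WT mice, against 4.41%. The median log2 fold change was 0.06 in both genotypes, with 35 of the 48 genes above 0 in KO and 36 in WT mice. Between set 2 and set 1, 10 of the 48 were higher and 6 lower, while 20.8% of all genes passed. The 4 with the smallest p were Ppap2b, a lipid phosphatase (log2 fold change 0.41 ± 0.05), S1pr1, a receptor for sphingosine phosphate (0.29 ± 0.04), Gldc, the glycine decarboxylase (0.70 ± 0.11), and Gjb6, connexin 30 (-0.52 ± 0.08). Of the 32 reactive genes, beside the same 20.8% of all genes, 5 were higher in set 2, among them the transcription factor Cebpd (0.88 ± 0.12), the surface protein Cd109 (1.19 ± 0.19) and the secreted pentraxin Ptx3 (1.21 ± 0.27). Another 5 were lower, among them the class I histocompatibility gene H2-T23 (-0.65 ± 0.10).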

How the data were processed

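The authors deposited whole-number read counts per gene symbol for each library, with no normalization, and all values here start from those counts. STAR, DESeq2 and the build mm10 are named in the submitters' processing notes without versions or roles. Which counter and annotation were used, whether strand was used, and what was done with reads that match several genes is not stated there. Even numbers made up 70.9% to 75.8% of the counts from 1 to 10 in a library, so mates of a pair may have been counted separately. The 95% intervals of log2 fold changes come from the edgeR SE and cover the spread between libraries, and the level of 3 reads covers counting error only. The authors' normalized values and their table of 1 comparison, whose groups are not named, were not used.

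The 24 libraries were grouped by their titles. Genes kept by the edgeR filter (minimum count 10) entered edgeR 4.0.16 (quasi-likelihood F test, R 4.3.3), with a robust fit and TMM factors, 4 group means and 20 residual degrees of freedom, and a second fit added the library set. The common dispersion was 0.0478. Benjamini-Hochberg adjustment ran over all 16313 genes, with a threshold of 0.05. Comparisons were stress in KO, stress in WT, their average, their difference, KO against WT under stress and in controls, and set 2 against set 1. Sets were split at 15000 CPM of Rn45s over all counts. CPM values of genes use TMM-scaled library sizes. RPKM values use total counts and the summed exon length of GENCODE vM21, which may not be the authors' annotation. Correlations use log2 CPM (prior count 2) with 100000 permutations, two-sided. DESeq2 1.42.0 and limma 3.58.1 (voom) were alternatives, beside RLE factors, other filters, subsets of libraries, a replicate block and leaving out each library. The scripts were tested on simulated counts.

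The members, lists, sets and tests were chosen with earlier results of these data known. Genes named are the 10 members, the 5 genes most alike to each of Gfap, Serpina3n and Slc1a2, and up to 4 members past the threshold of each further astrocyte list and comparison, by smallest p. Il1r1 was added to them. The fit with the set term and without the thalamic libraries was added after the data were seen. RefSeq start site regions of 9 of the 10 members were used, and Aqp4 was not searched.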

Additional observations from a re-analysis of the deposited data

Results flagged for a closer look

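In 40 groups of values (10 genes in 4 groups of libraries), 2 held a library farther from the others than the 95% critical value of Dixon's test, where chance gives about 1 in 20 groups. Vim had 58.6 CPM in WT control replicate 6, and the nearest WT control library had 46.3 CPM. S100b had 227 CPM in KO control replicate 1, and the nearest KO control library had 153 CPM. Both values are higher than the rest of their group, and no reason for them was tested.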

How the results depend on the processing

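Of 760 values of single genes under alternatives other than leaving out 1 library, 682 kept their sign and 78 changed it. Of these 78, 19 had a value larger than its SE in the reported fit or in the alternative, and in the other 59 both lay within it. The threshold was passed newly by 3 of the 760. Leaving out 1 library gave 1680 values, of which 2 passed newly and 104 changed sign, all of them within the SE in both fits. The cause of the changes below was not tested, beyond there being fewer libraries where some were left out.

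DESeq2 called 7 genes in all for stress in KO, 59 for stress in WT, 74 for the average and 3 for KO against WT in controls, where edgeR called 1, 22, 35 and 0. For stress in KO the count was 0 with no expression filter, with the compared groups alone, with the set term, in set 1 alone, in set 2 alone, without the 3 thalamic libraries and with both the set term and these left out. Leaving out 1 library gave 0 to 2. In set 1 alone the counts for stress in WT and for the average were 0, in set 2 alone the average had 69 genes called with 1 member (Vim) among them, and without the thalamic libraries it had 20.

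In set 1 alone the log2 fold change under stress was -0.14 for Gja1 in KO, -0.0934 for Vim in WT, and -0.0632 for Aqp4 and -0.18 for Gja1 in the average. KO against WT under stress was 0.19 for Serpina3n and -0.23 for S100b, and in controls 0.0934 for Serpina3n. The median of the homeostatic genes for stress in WT was -0.15 there, and that of the reactive genes for KO against WT under stress 0.14. In set 2 alone Gja1 gave 0.11 for stress in WT.

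Without the thalamic libraries Gja1 gave -0.12 for stress in KO and -0.10 for KO against WT under stress. The averages were -0.0467 for Cd44, -0.0406 for Aqp4 and -0.0668 for Gja1, and Aqp4 gave -0.12 for set 2 against set 1. With the set term as well, Gja1 gave -0.12 for stress in KO, the averages were -0.0421 for Cd44, -0.0382 for Aqp4 and -0.0702 for Gja1, and S100b gave -0.13 for KO against WT under stress. Between sets the members called numbered 6 or 7. Slc1a2 passed as the seventh by voom (0.20), without the thalamic libraries (0.19) and without WT stress replicate 5 (0.17), and Cd44 without KO stress replicate 4 (0.42).

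The replicate numbers were not taken to pair the libraries, since not every same-numbered pair deviated together. Correlations between stress and control ran between -0.24 and 0.22 in KO (1 of 5 pairs over 0.1, 0 best with their own number) and between -0.28 and 0.49 in WT (4 of 6, 1 best with its own). Between KO and WT they ran between -0.22 and 0.34 under stress (4 of 5 over 0.1) and between -0.15 and 0.27 in controls (4 of 6), beside means near 0 for other pairs (-0.03 to 0.03). With a replicate block 0 members were called in the 6 comparisons, with 24 genes in all for stress in WT, 1 in KO and 36 for the average, and Vim gave 0.38 in KO and 0.26 in WT. Depth limits Cd44 most, at 2.33 to 7.47 CPM the lowest of the 10 members.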

Other observations

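The genes whose log2 CPM, centred within each set, went most closely with a member over the 24 libraries were named as a description, with no test, since all points share their libraries and their depth. For Gfap they were Acp6 (Pearson r 0.795), Hopx (0.748), Zfand3 (0.747), Cebpb (0.736) and Rhpn1 (0.726). For Serpina3n they were Orai2 (0.847), Ip6k2 (0.813), Doc2b (0.812), Lrrn2 (0.798) and Supt6 (0.790). For Slc1a2 they were Hivep2 (0.947), Cnksr2 (0.932), Prkcb (0.931), Psd3 (0.924) and Nrcam (0.922). Slc1a2 was low in the 3 thalamic libraries, with 1277 to 1528 CPM, against 1632 to 2002 CPM in the other 10 of set 2. The neuronal sum was low there too, with 7014 to 8147 CPM in the 3 and 12505 to 14318 CPM in the 10. How far the make-up of the tissue underlies these r values was not tested.

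Between members, measured the same way, the glutamate transporters Slc1a2 and Slc1a3 had the highest r (0.877). Aqp4 and Gja1 had an r of 0.641 and Gfap and Serpina3n one of 0.464, while Gfap and Vim had one of 0.242. The lowest values were those of S100b with Slc1a3 (-0.706), S100b with Slc1a2 (-0.634) and Slc1a2 with Vim (-0.538). Centring by set leaves in the difference between the 3 thalamic libraries and the other 10 of set 2. Aqp4 had 78.2 to 109 CPM in the 3 and 53.9 to 71.5 in the 10, and S100b 155 to 182 and 107 to 134. Slc1a2 had 1277 to 1528 CPM in the 3 and 1632 to 2002 in the 10, and Slc1a3 295 to 313 and 345 to 417. The part of these 3 libraries in the correlations was not tested.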
